A study of Mus musculus with 6 samples.

Results

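The 10 genes described here encode chains of the receptors by which CD8+ T cells sense IL-2, IL-4, IL-7, IL-12, IL-15, IL-18 and IL-21. They were chosen by symbol: Il2ra, Il2rb, Il2rg, Il7r, Il4ra, Il21r, Il12rb1, Il12rb2, Il18r1 and Il18rap. All 10 were found among the 18288 gene symbols of the deposited data, and all 10 passed the filter on low values that left 13819 genes for testing. The series holds 6 RNA-seq libraries, 3 from Nae1T-KO and 3 from Nae1WT mice, of CD8+ T cells taken at day 2 of activation in culture. The gene altered, Nae1, encodes a subunit of the enzyme that activates NEDD8, a ubiquitin-like protein. Both groups were activated. The labels do not give the strain, age or sex of the mice, the driver of the deletion, the activating agents or the cytokines in the culture medium. They number the samples as biological replicates but do not say that each came from its own mouse. Every p-value below therefore measures the spread between these samples.

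A cytokine receptor of the common-gamma family joins the shared gamma chain, encoded by Il2rg, to other chains that take part in binding the cytokine. Its chains carry the kinases JAK1 and JAK3, which phosphorylate STAT proteins. The alpha chain of the IL-2 receptor, CD25, has no kinase and raises the affinity for IL-2. The IL-12 receptor pairs the chains encoded by Il12rb1 and Il12rb2, bound by TYK2 and JAK2, and signals mainly through STAT4. The IL-18 receptor belongs to the IL-1 receptor family: Il18r1 encodes the chain that binds IL-18, Il18rap encodes the accessory chain, and both signal through MyD88 to NF-kB. In CD8+ T cells IL-12 and IL-18 are known to act together in inducing interferon gamma.

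Values are the authors' normalized counts, read counts that had been divided by a size factor for each library, and log2 fold changes are on the scale of log2(normalized count + 1), Nae1T-KO over Nae1WT. Nae1 itself stood at 390.3, 338 and 367 in Nae1T-KO, compared with 1601, 1806 and 1882 in Nae1WT, so each library matched its label. Between 15628252 and 25444653 reads were recovered per library. By Xist and Y-linked transcripts 3 libraries were read as female, replicate 3 of Nae1WT and replicates 1 and 2 of Nae1T-KO, and the other 3 as male, so the sexes were unevenly spread over the groups. Cd8a was abundant in both groups, at 6993 ± 817 (SD, n = 3) normalized counts in Nae1T-KO, compared with 7450 ± 638 (SD, n = 3) in Nae1WT. Cd4 was far lower in both groups, at 70.3 ± 49.0 and 60.9 ± 51.6 normalized counts (SD, n = 3).

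Both chains of the IL-18 receptor fell in Nae1T-KO, and they were the members with the largest decreases. Il7r and Il21r, which encode chains that pair with the shared gamma chain, fell by smaller amounts. In all, 4 of the 10 genes passed the test (limma, adjusted p under 0.05), all 4 of them lower in Nae1T-KO. Of all tested genes 12.7% passed, 6.18% lower and 6.53% higher. The groups did not overlap for 6 of the 10 genes, where 33.7% of all tested genes showed no overlap. The median log2 fold change of the 10 genes was -0.21, beside -0.01 for all tested genes.

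**Figure D1:**
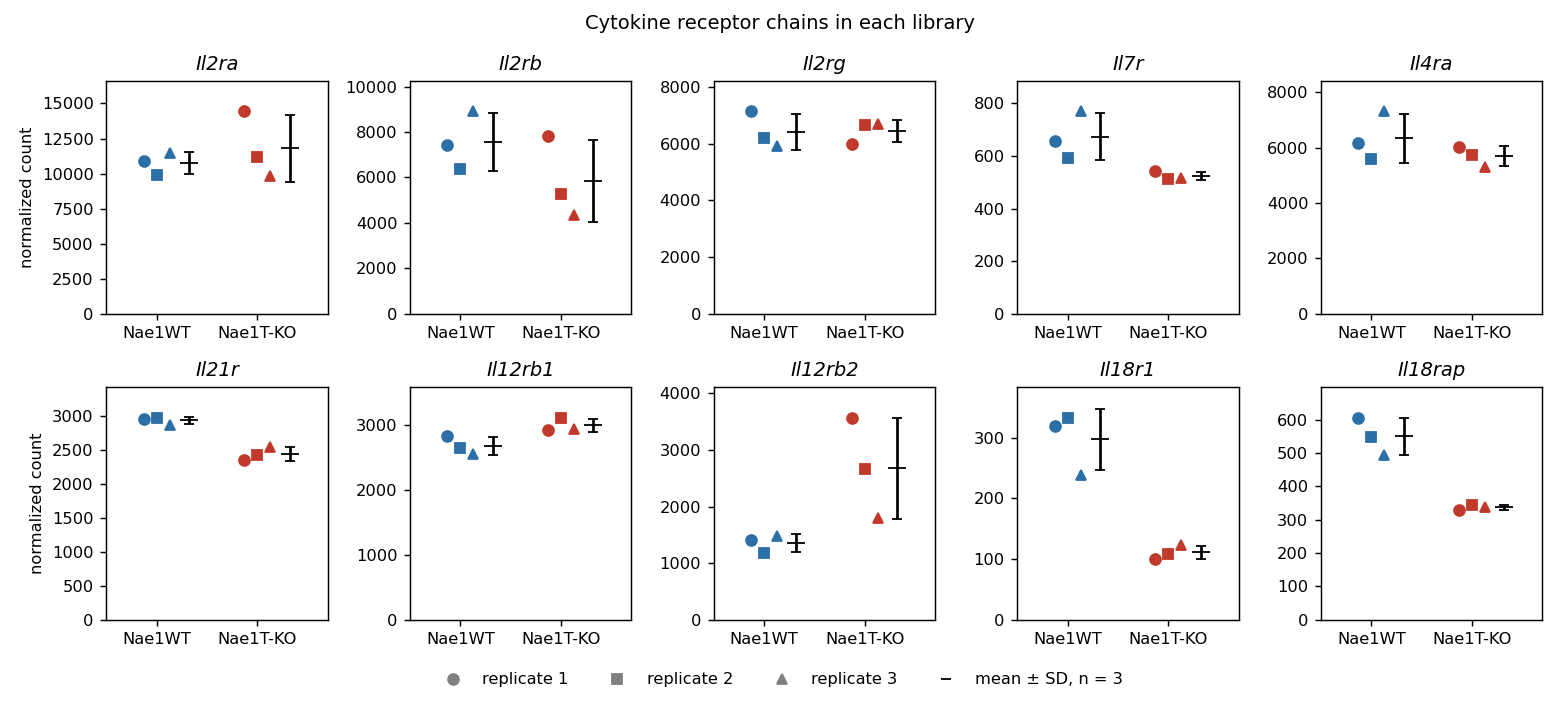
Normalized counts (vertical axes, each from 0) of the 10 receptor chains in the 3 Nae1WT libraries (blue) and the 3 Nae1T-KO libraries (red), with the mean and SD of each group (n = 3). The groups do not overlap for Il7r, Il21r, Il12rb1, Il12rb2, Il18r1 and Il18rap.

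The starts of both IL-18 receptor genes are shown because these 2 neighbours fell together. Il18r1 occupies chr1:40465552-40500854 and Il18rap chr1:40515362-40551705 (GRCm38, GENCODE M21), both on the plus strand, with 14.5 kb between them. The sequences are the 130 bases before the RefSeq start of each gene (GRCm38.p6), at chr1:40465422-40465551 for Il18r1 and chr1:40515232-40515361 for Il18rap. Capitals mark GGAAG on either strand, a form of the motif bound by ETS factors. Other forms of that motif were not marked. RefSeq lists 3 starts for Il18r1, and the window shown ends just before the gene start given above.
Il18r1: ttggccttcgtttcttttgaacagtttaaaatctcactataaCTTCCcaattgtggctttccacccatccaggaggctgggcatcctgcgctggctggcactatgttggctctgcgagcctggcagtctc
Il18rap: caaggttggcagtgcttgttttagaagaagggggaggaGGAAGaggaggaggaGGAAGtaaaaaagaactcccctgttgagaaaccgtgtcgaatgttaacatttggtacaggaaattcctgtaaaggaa

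GGAAG was matched 1 time before Il18r1 and 2 times before Il18rap. It is a common string: 43.35% of 32851 RefSeq promoter windows of the same length hold it, and so do 6 of the 8 receptor genes with an entry. The 2 windows hold no match on either strand to the STAT motif TTCNNNGAA (in 3.53% of windows), the AP-1 motif TGANTCA (3.70%), the NF-kB motif (GGG and CC with 5 bases between them, 32.52%), the T-box half-site TCACAC (6.41%) or the antioxidant response element core TGACNNNGC (6.08%). These motifs were chosen after the sequences had been seen, and a match or its lack describes only these letters in this window.

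Il18r1, the ligand-binding chain, stood at 101, 109 and 123 normalized counts in Nae1T-KO, compared with 319, 333 and 239 in Nae1WT. Every Nae1T-KO library was below every Nae1WT library, and the lowest Nae1WT value, in replicate 3, was still nearly double the highest Nae1T-KO value. The means were 111 ± 11.4 (SD, n = 3) and 297 ± 50.9 (SD, n = 3), and the level fitted on the log scale was 2.64-fold lower in Nae1T-KO. Limma put the log2 fold change at -1.40 (SE 0.16, 95% interval -1.75 to -1.06, adjusted p = 0.000668). These values rest on 90 to 124 recovered reads in each Nae1T-KO library and 260 to 319 in each Nae1WT library. The absolute change of Il18r1 was larger than that of 98.5% of tested genes. In such bulk samples, fewer cells expressing a gene and less RNA per cell cannot be told apart.

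Il18rap, the accessory chain, stood at 329.9, 343 and 339 normalized counts in Nae1T-KO, compared with 607, 549 and 496 in Nae1WT. The Nae1T-KO libraries lay within a narrow band, and all of them were below the lowest Nae1WT library. The means were 337 ± 6.65 (SD, n = 3) and 550.3 ± 55.5 (SD, n = 3), and the fitted level was 1.62-fold lower in Nae1T-KO. Limma put the log2 fold change at -0.70 (SE 0.10, adjusted p = 0.00202). The direction of both genes was the same in every alternative fit. Il18r1 was called in 20 of 21 alternatives and Il18rap in 19 of 21.

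In these libraries the decrease of the binding chain exceeded that of the accessory chain. Il18rap exceeded Il18r1 by a factor of 3.28, 3.14 and 2.75 in Nae1T-KO, compared with 1.90, 1.65 and 2.07 in Nae1WT. These ratios of normalized counts, not corrected for length, did not overlap between the groups. Their mean log2 ratio was 1.60 ± 0.13 (SD, n = 3) in Nae1T-KO, compared with 0.90 ± 0.17 (SD, n = 3) in Nae1WT (exact two-sided permutation test, p = 0.1, adjusted p = 0.14 over 7 pairs). With 3 libraries against 3 this test cannot give a p below 0.1.

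The genes around the IL-18 receptor pair belong to the same receptor family. Il1rl1, which encodes the IL-33 receptor ST2, ends 136 bases before Il18r1 starts. It stood at 134, 197 and 162 normalized counts in Nae1T-KO, compared with 173, 227 and 128 in Nae1WT. The groups overlapped, and the log2 fold change was -0.08 (95% interval -0.55 to 0.40, limma, adjusted p = 0.854). Il1rl2, a chain of the IL-36 receptor, had 73.8, 103 and 103 normalized counts in Nae1T-KO, compared with 78.6, 61.7 and 70.04 in Nae1WT, for a log2 fold change of 0.40 (limma, adjusted p = 0.209). Il1r1 and Il1r2, the IL-1 receptor and its decoy, were too low to be tested, at means of 17.7 and 2.64 normalized counts in Nae1T-KO, compared with 5.92 and 4.03 in Nae1WT. Map4k4 and Mfsd9, the measured genes on either side of the cluster, had log2 fold changes of 0.14 and 1.08 and did not pass (limma, adjusted p = 0.205 and 0.242). Of the genes measured in this stretch, the 2 IL-18 receptor genes alone passed the test. Whether their changes differ from those of their neighbours was not tested.

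**Figure D2:**
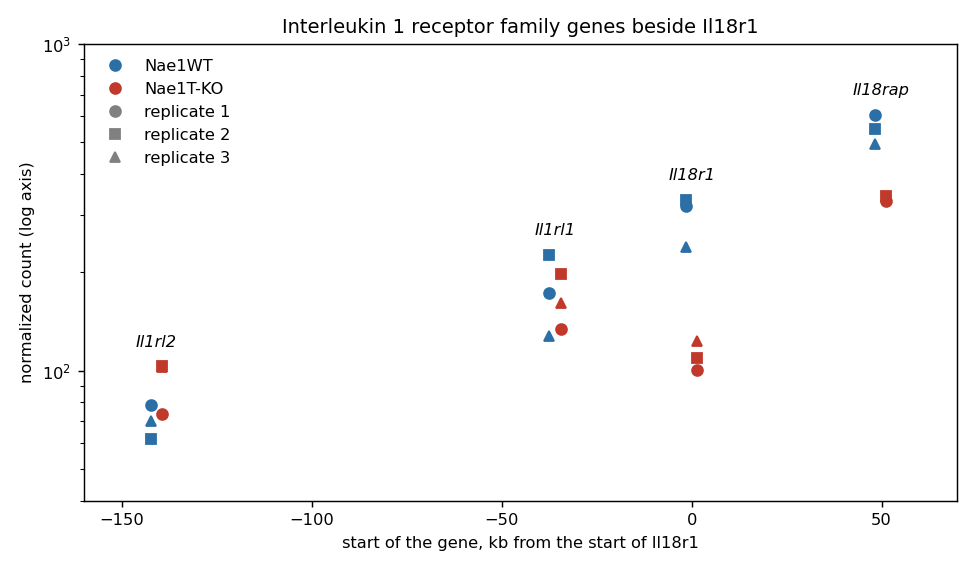
Normalized counts (log axis) of 4 IL-1 receptor family genes on chromosome 1 in each library, placed by the distance of their starts from the start of Il18r1 in kb. Il1rl1 and Il1rl2 overlap between the groups, while Il18r1 and Il18rap are lower in all 3 Nae1T-KO libraries.

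The 5 genes whose pattern over the 6 libraries was most like that of Il18r1 were Rhoh (Pearson r = 0.998 of log2 values), Recql (0.995), Mfsd8 (0.994), Adam10 (0.992) and Lnpk (0.992), among 9647 tested genes with a mean of at least 100 normalized counts. Il21r ranked 12 in this order with an r of 0.989, and Il18rap ranked 18 with 0.986. The 6 points share 2 groups, so a gene that differed between the groups tends to score high. The largest negative value among the members was that of Il12rb2, at -0.90.

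Both chains of the IL-12 receptor had a positive log2 fold change, but neither passed the test. Il12rb2, the chain induced on activated T cells, stood at 3573, 2669 and 1790.3 normalized counts in Nae1T-KO, compared with 1409.6, 1183 and 1485 in Nae1WT. All 3 Nae1T-KO libraries were above all Nae1WT libraries, but they were spread widely, the highest at more than double the highest Nae1WT value. The means were 2678 ± 892 (SD, n = 3) and 1359 ± 157 (SD, n = 3), and the fold fitted by limma on the log scale was 1.90. The log2 fold change was 0.93 (SE 0.26, 95% interval 0.29 to 1.56), and the gene did not pass (limma, adjusted p = 0.0718). It passed in edgeR's quasi-likelihood test (adjusted p = 0.0163), in DESeq2 (adjusted p = 0.00881), in limma with a term for sex (0.0218) and without Nae1T-KO replicate 1 (0.0361) or replicate 3 (0.00319). Over the 21 alternatives the log2 fold change lay between 0.69 and 1.19 and the adjusted p between 0.00319 and 1.

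Reads of Il12rb2 may be shared with a much more abundant gene. Il12rb2 lies on the minus strand at chr6:67291318-67376188 (GRCm38), where Serbp1, on the plus strand, overlaps it by 6419 bases. The overlap includes 1519 of the 3794 exonic bases that GENCODE M21 gives Il12rb2. Serbp1, which encodes an mRNA-binding protein, stood at 32259 ± 2251 (SD, n = 3) normalized counts in Nae1T-KO, compared with 36759 ± 2321 (SD, n = 3) in Nae1WT, which made a log2 fold change of -0.19 (limma, adjusted p = 0.149). The part of Serbp1 reads in the Il12rb2 values was not tested. Whether the counting used strand is not given in the sources used here.

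Il12rb1, the chain shared by the IL-12 and IL-23 receptors, stood at 2917, 3111 and 2941 normalized counts in Nae1T-KO, compared with 2828, 2638 and 2557 in Nae1WT. The groups did not overlap, yet their nearest values were close, and the log2 fold change was 0.16 (95% interval 0.01 to 0.31, limma, adjusted p = 0.143). The gene lies at chr8:70808449-70821424 (GRCm38), on the chromosome that carries Nae1 and 33.7 Mb from it. Il12rb2 over Il12rb1 was 1.23, 0.858 and 0.609 in Nae1T-KO, compared with 0.498, 0.448 and 0.581 in Nae1WT. These ratios did not overlap, with log2 means of -0.21 ± 0.50 and -0.98 ± 0.19 (SD, n = 3, exact two-sided permutation test, p = 0.1, adjusted p = 0.14).

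Among the chains that join the shared gamma chain, Il21r and Il7r passed as lower. Il21r, the IL-21 receptor chain, stood at 2359, 2425 and 2549.7 normalized counts in Nae1T-KO, compared with 2962, 2981 and 2873 in Nae1WT. Values within each group were tight and the groups did not overlap. The means were 2445 ± 96.9 (SD, n = 3) and 2939 ± 57.5 (SD, n = 3), and the fitted level was 1.20-fold lower in Nae1T-KO. Limma put the log2 fold change at -0.27 (SE 0.06, adjusted p = 0.0227). The call was kept in 11 of 21 alternatives. It was lost with scaling to total counts (adjusted p = 0.05002) and without any 1 library except Nae1T-KO replicate 3 (adjusted p from 0.0605 to 0.0936).

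Il7r encodes the IL-7 receptor alpha chain, which is known to decline when T cells are activated and to mark cells with memory potential. It stood at 542, 512 and 516 normalized counts in Nae1T-KO, compared with 657, 594 and 769.7 in Nae1WT. The Nae1T-KO libraries were alike and all below the Nae1WT libraries, which were spread more widely. The means were 523 ± 16.5 (SD, n = 3) and 673 ± 89.1 (SD, n = 3), and the fitted level was 1.28-fold lower in Nae1T-KO. Limma put the log2 fold change at -0.36 (SE 0.10, adjusted p = 0.0476). The call was kept in 10 of 21 alternatives: it was lost with upper-quartile scaling (adjusted p = 0.0577), with scaling to total counts (0.0884) and without any 1 library except Nae1WT replicate 2 (0.0799 to 0.172). The direction held in all of them.

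Il4ra, the IL-4 receptor alpha chain, did not pass. It stood at 6026, 5740.5 and 5309 normalized counts in Nae1T-KO, compared with 6156, 5575 and 7313 in Nae1WT, and the groups overlapped. Its log2 fold change was -0.15 (95% interval -0.37 to 0.07, limma, adjusted p = 0.341). Il4ra and Il21r are neighbours on chromosome 7, at chr7:125552120-125579474 and chr7:125603429-125633570 (GRCm38), with 24.0 kb between them. The nearest measured genes on either side, Nsmce1 and Gtf3c1, had log2 fold changes of -0.03 and 0.01 and did not pass (limma, adjusted p = 0.842 and 0.957).

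The 3 chains of the IL-2 receptor did not pass the test. Il2rg, the shared gamma chain, stood at 6009, 6661 and 6705 normalized counts in Nae1T-KO, compared with 7146, 6192 and 5936 in Nae1WT. The groups were interleaved, and the log2 fold change was 0.01 (95% interval -0.17 to 0.20, limma, adjusted p = 0.951). Il2rg is the one member on the X chromosome, at chrX:101264378-101268255 (GRCm38).

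Il2ra, which encodes CD25, stood at 14437, 11212 and 9789.7 normalized counts in Nae1T-KO, compared with 10919, 9925 and 11468 in Nae1WT. Nae1T-KO replicate 1 was the highest of the 6 and replicate 3 the lowest, so the Nae1WT libraries lay inside the range of the Nae1T-KO libraries. The log2 fold change was 0.12 (95% interval -0.17 to 0.40, limma, adjusted p = 0.592), and it was -0.0373 without Nae1T-KO replicate 1. Il2ra lies at chr2:11642807-11693193 (GRCm38).

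Il2rb encodes the beta chain that the IL-2 and IL-15 receptors share. It stood at 7837, 5286 and 4353 normalized counts in Nae1T-KO, compared with 7421, 6359 and 8909 in Nae1WT. Replicates 2 and 3 of Nae1T-KO were below every Nae1WT library, while replicate 1 was inside their range. Limma put the log2 fold change at -0.41 (SE 0.24, adjusted p = 0.321). Without Nae1T-KO replicate 1 it was -0.64 and passed (limma, adjusted p = 0.0250), and with a term for sex in the fit it was -0.56 and passed (adjusted p = 0.0454). It was -0.22 without Nae1T-KO replicate 3 and -0.28 without Nae1WT replicate 3 (limma, adjusted p = 0.583 and 0.531). The gene lies at chr15:78479256-78495271 and Il7r at chr15:9505788-9530176 (GRCm38).

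As a ratio within each library, the alpha chain stood higher over the beta chain in Nae1T-KO. Il2ra over Il2rb was 1.84, 2.12 and 2.25 in Nae1T-KO, compared with 1.47, 1.56 and 1.29 in Nae1WT. The ratios did not overlap although neither gene alone separated the groups, and the log2 means were 1.05 ± 0.15 and 0.52 ± 0.14 (SD, n = 3, exact two-sided permutation test, p = 0.1, adjusted p = 0.14). Against Il2rg, the log2 ratio differed by -0.37 for Il7r and -0.28 for Il21r, Nae1T-KO minus Nae1WT, both without overlap (exact permutation test, p = 0.1 each). For Il7r the nearest log2 ratios were close, at -3.47 in Nae1T-KO replicate 1 and -3.44 in Nae1WT replicate 1. Il2rg itself had a log2 fold change of 0.01, so these 2 ratios mostly restate the decreases of Il7r and Il21r. The ratios of Il2rb and Il4ra to Il2rg overlapped between the groups, with differences of -0.42 and -0.16 (exact permutation test, p = 0.3 and 0.6).

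**Figure D3:**
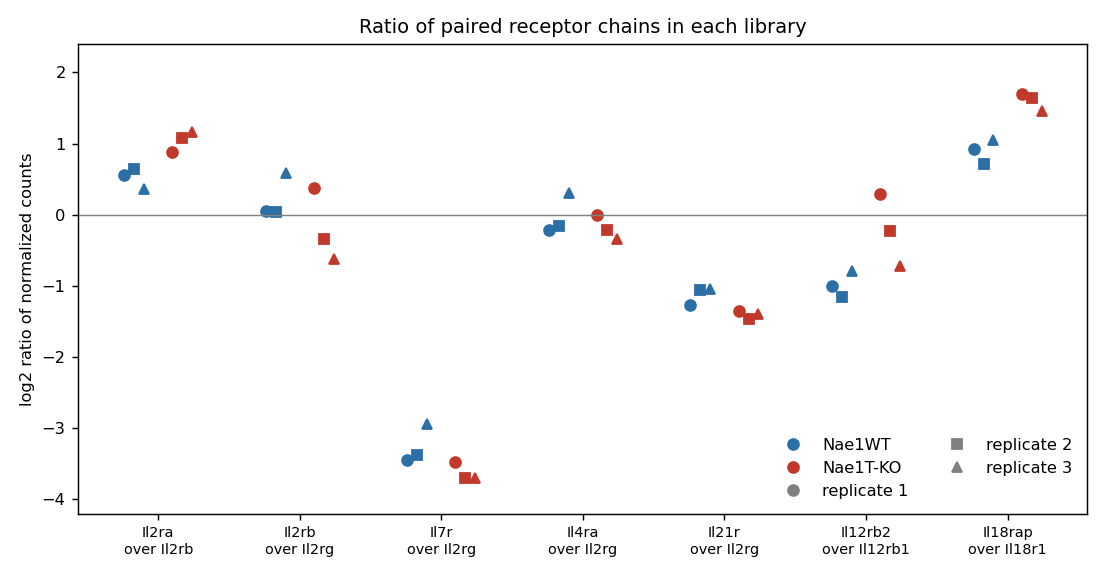
log2 ratio of the normalized counts of 2 chains (vertical axis) for 7 chain pairs in the 3 Nae1WT libraries (blue) and the 3 Nae1T-KO libraries (red). The groups are apart for Il2ra over Il2rb, Il7r over Il2rg, Il21r over Il2rg, Il12rb2 over Il12rb1 and Il18rap over Il18r1, and overlap for the other 2 pairs.

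The log2 fold changes therefore ran from -1.40 for Il18r1 to 0.93 for Il12rb2. The sign was negative for 6 genes and positive for 4. The chains with the widest intervals, Il12rb2 and Il2rb, were those with the largest spread within Nae1T-KO. Their coefficient of variation there was 33.3% and 31.0%, beside 11.5% and 16.9% in Nae1WT. For Il7r and Il18rap the spread lay the other way, at 3.16% and 1.97% in Nae1T-KO, compared with 13.2% and 10.1% in Nae1WT.

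**Figure D4:**
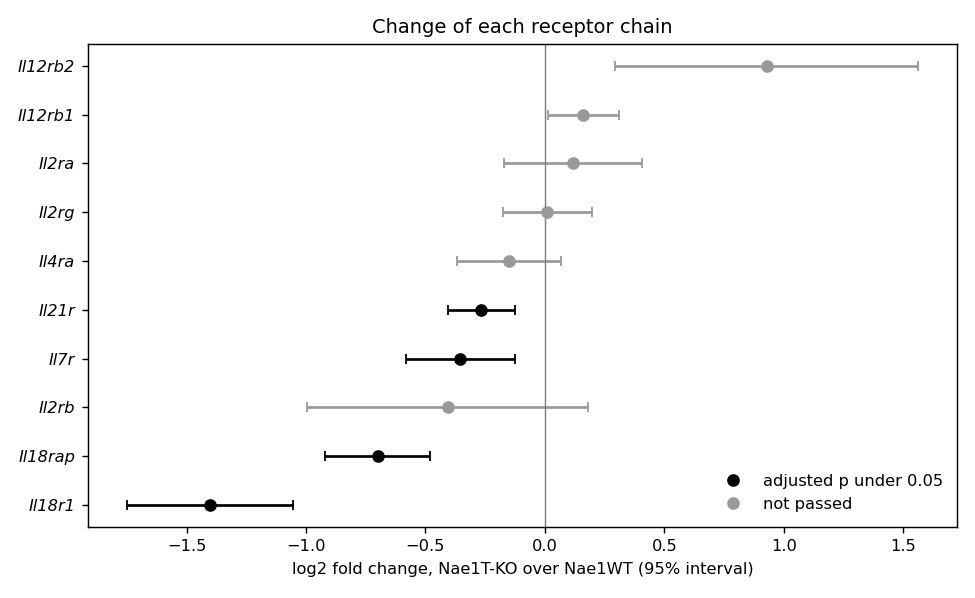
log2 fold change of each receptor chain, Nae1T-KO over Nae1WT (horizontal axis), with its 95% interval from limma. Black points passed at an adjusted p under 0.05: Il18r1, Il18rap, Il7r and Il21r, all below 0.

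Compared per length, as normalized counts per kb of GENCODE exon, the order of the 10 chains was the same in both groups. Il2rg was highest, at 2692 in Nae1WT and 2706 in Nae1T-KO, followed by Il2ra, Il2rb, Il4ra, Il21r, Il12rb1, Il12rb2, Il7r, Il18rap and Il18r1. Il18r1 was lowest, at 61.7 and 23.1 per kb. In Nae1WT the neighbours Il2ra and Il2rb alone overlapped in this order, at 1886 and 1764 per kb. In Nae1T-KO Il21r, Il12rb1 and Il12rb2 could not be ordered beyond their spread, at 735, 728 and 706 per kb, where Nae1WT had 884, 652 and 358. In the same group Il2ra also overlapped both Il2rg and Il2rb. The length used for Il12rb2 includes the exonic bases that it shares with Serbp1.

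Across libraries of the same group the chains varied in 2 sets. Nae1WT replicate 3 held the highest Nae1WT value of Il2ra, Il2rb, Il7r, Il4ra and Il12rb2 and the lowest of Il2rg, Il21r, Il12rb1, Il18r1 and Il18rap. Nae1T-KO replicate 1 held the highest and the lowest values of its group for exactly the same 5 and 5 genes. Both libraries were read as female. The third female library, Nae1T-KO replicate 2, did not share the pattern: it was highest in its group for Il12rb1 and Il18rap and lowest for Il7r. Of the 10 genes, 9 had the same sign of the difference between female and male libraries in both groups, Il12rb1 being the exception. The share of all tested genes with the same sign was not counted, and the 10 signs come from the same few libraries. With 1 or 2 libraries of a sex per group, sex cannot be told apart from other differences between single libraries.

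Comparing libraries of the same sex gives 4 differences, 2 between female libraries, which share Nae1WT replicate 3, and 2 between male libraries, which share Nae1T-KO replicate 3. On the log2 scale these ranged from -1.43 to -1.12 for Il18r1, from -0.84 to -0.53 for Il18rap, from -0.28 to -0.22 for Il21r and from -0.59 to -0.20 for Il7r. They ranged from 0.34 to 1.27 for Il12rb2, from 0.06 to 0.28 for Il12rb1 and from -0.77 to -0.19 for Il2rb. For genes whose groups do not overlap, the sign of these differences is given by that. Of the other 4, Il2rb and Il4ra were lower in Nae1T-KO in all 4 differences, while the sign varied for Il2ra and Il2rg. With sex as a covariate 6 of the 10 genes were called, Il2rb in addition to the 4 as lower and Il12rb2 as higher. That fit called 11.1% of all tested genes, 5.59% higher and 5.56% lower.

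The other genes of these pathways were taken from 8 lists. Leaving out the members, 97 listed genes were tested and 19 passed, where 12.7% of all tested genes passed, 6.53% higher and 6.18% lower. The counts per list below include the members a list holds. All changes given for these genes are on the log2 scale. Among 21 other chains of the same receptor families, 1 rose and 2 fell, with a median log2 fold change of 0.18. Ifngr1, the ligand-binding chain of the interferon gamma receptor, rose by 0.57, from 823 ± 82.2 to 1234 ± 251 normalized counts (SD, n = 3, limma, adjusted p = 0.0351). Il10rb, shared by the IL-10 and IL-22 receptors, had a log2 fold change of -0.37, and Il27ra, the IL-27 receptor chain, one of -0.33 (limma, adjusted p = 0.0343 and 0.0379). Under scaling to total counts neither of these decreases passed and 2 chains were higher. The call of Ifngr1 was lost without any 1 library except Nae1T-KO replicate 1 (adjusted p from 0.0575 to 0.122), and those of Il10rb and Il27ra without any of 4 libraries (0.0638 to 0.116): Nae1WT replicates 1 and 3 for both, Nae1T-KO replicates 2 and 3 for Il10rb, and Nae1T-KO replicate 1 and Nae1WT replicate 2 for Il27ra. With a term for sex Il27ra was not called either (0.0678). Il15ra, the IL-15 receptor alpha chain, had a log2 fold change of 0.33 and did not pass (limma, adjusted p = 0.0913).

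Of the 12 ligands listed, 6 could be tested, and 1 rose. Il2, the growth factor that activated T cells make for themselves, stood at 1349.9, 2022 and 2499 normalized counts in Nae1T-KO, compared with 616, 734 and 587 in Nae1WT. Every Nae1T-KO library was above every Nae1WT library, and limma put the log2 fold change at 1.56 (SE 0.22, adjusted p = 0.00715). The other 5, Il4, Il9, Il13, Il21 and Il23a, had log2 fold changes between 0.12 and 1.46 and did not pass, and the median of the 6 was 0.73. Il18 transcripts were near the limit of counting, at means of 9.70 normalized counts in Nae1T-KO, compared with 1.58 in Nae1WT, and were not tested.

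Below the common-gamma and IL-12 receptors, 1 of 10 JAK and STAT genes rose, with a median of -0.03. Jak2, the kinase bound to the chain encoded by Il12rb2, rose by 0.24, from 4765 ± 175 to 5623 ± 213 normalized counts (SD, n = 3, limma, adjusted p = 0.0366). Stat4, the main STAT of IL-12, had a log2 fold change of -0.19 and did not pass (limma, adjusted p = 0.12). Of 12 genes of IL-18 receptor signalling, 2 rose, with a median of 0.08: Rela by 0.44 and Nfkb1 by 0.28, both encoding subunits of NF-kB (limma, adjusted p = 0.00517 and 0.0411). The calls of Jak2 and Nfkb1 were each lost without any 1 library except Nae1T-KO replicate 3 (adjusted p from 0.0664 to 0.152) and with a term for sex (0.0587 and 0.0600). The adaptor Myd88 had a log2 fold change of 0.14 and did not pass. Among 10 inhibitors of cytokine receptor signalling 1 rose and 1 fell, with a median of -0.01. Socs3, which binds cytokine receptors and blocks JAKs, rose by 0.76, and Socs2, a STAT5 target that acts in feedback, had a log2 fold change of -1.17 (limma, adjusted p = 0.0113 and 0.0022).

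Of 17 targets of IL-2 and STAT5, 2 rose and 5 fell, with a median of 0.00. The largest increase was in Prdm1, which encodes the effector regulator BLIMP-1, at 68.2, 54.6 and 59.6 normalized counts in Nae1T-KO, compared with 6.14, 9.41 and 22.1 in Nae1WT, for a log2 fold change of 2.36 (limma, adjusted p = 0.0049). Its groups were far apart, at low levels throughout. Lta, which encodes lymphotoxin alpha, had a log2 fold change of -0.84 (limma, adjusted p = 0.00141), while Cish, a STAT5 target and feedback inhibitor, stood at 0.16 and did not pass.

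Of 11 targets of IL-12 and STAT4, 1 rose and 3 fell, with a median of -0.20. The list holds 3 of the receptor chains themselves, and Il18r1 and Il18rap make up 2 of its 3 decreases. The third was Cxcr3, a chemokine receptor of effector and memory T cells, at 206 ± 10.4 normalized counts in Nae1T-KO, compared with 356 ± 13.7 in Nae1WT (SD, n = 3), a log2 fold change of -0.78 (limma, adjusted p = 0.00141). Furin, which encodes a proprotein convertase induced by IL-12, rose by 1.43 (limma, adjusted p = 2.71e-05). Ifng, the cytokine that IL-12 and IL-18 induce together, stood at 15810, 10693 and 13059 normalized counts in Nae1T-KO, compared with 17550, 30771 and 28566 in Nae1WT. The groups did not overlap, and the log2 fold change of -0.93 did not pass (limma, adjusted p = 0.0674).

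Among 18 transcription factors that bind receptor genes, 1 rose and 1 fell, with a median of 0.12. Eomes, a T-box factor of effector and memory CD8+ T cells, stood at 899, 788 and 687 normalized counts in Nae1T-KO, compared with 1389.9, 1291 and 1632 in Nae1WT, without overlap. Its log2 fold change was -0.86 (limma, adjusted p = 0.00159). Runx1 rose by 0.61 (limma, adjusted p = 0.0037), and Tbx21, which encodes the related factor T-bet, stood at -0.08 and did not pass.

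**Figure D5:**
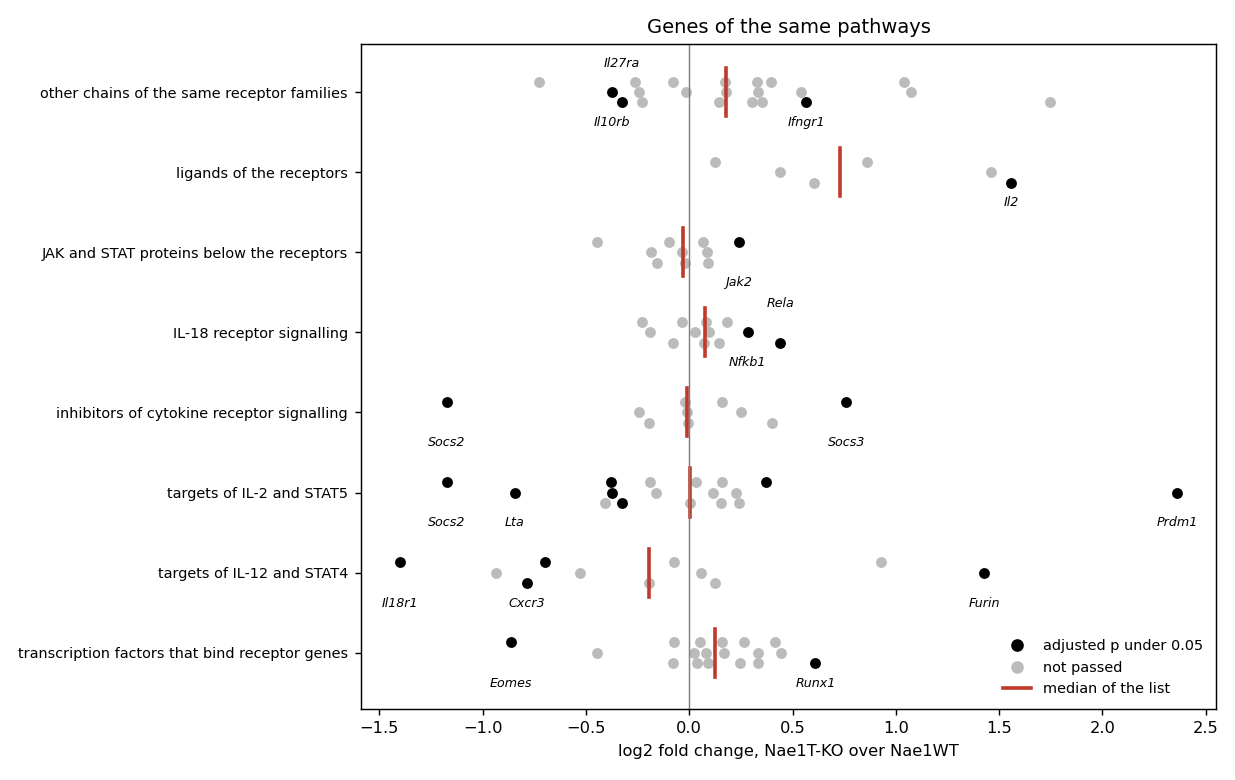
log2 fold changes (horizontal axis) of the tested genes of 8 lists, with black points for genes at an adjusted p under 0.05, grey for the others and a red bar for the median of each list. The lists of targets hold some of the receptor chains, and symbols mark up to 3 genes per list.

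Markers of other cells were checked since some of these receptors are also made by them. Of 5 NK and gamma-delta T cell markers measured, 2 could be tested and neither passed, and their summed level was 39.1 to 73.7 normalized counts in Nae1T-KO, compared with 56.5 to 67.9 in Nae1WT. The NK cell gene Ncr1 had means of 5.66 and 9.65. Innate lymphoid and mast cell markers summed to 497 to 746 and 424 to 662, with 0 of 5 passing, and the list includes Il1rl1. B cell markers summed to 219 to 623 and 241 to 372, with 0 of 7 passing, and erythroid markers to 194 to 2042 and 142 to 629, with 0 of 5 passing. Both highest sums were those of Nae1T-KO replicate 2. Replicates 1 and 3 of Nae1T-KO had 219 and 294 for B cell markers and 357 and 194 for erythroid markers. Myeloid and dendritic cell markers summed to 174 to 209.7 and 77.4 to 115, with 1 of 4 higher, and their part in the receptor values was not tested. Of 8 CD4 and regulatory T cell markers 1, Cxcr5, fell, a call lost without any 1 library except Nae1T-KO replicate 2 (limma, adjusted p from 0.0514 to 0.0810). The list summed to 5142 to 7669 and 4388 to 6111. Most of that sum came from Ctla4, with means of 3319 in Nae1T-KO and 2435 in Nae1WT, and Tnfrsf18, with 2324 and 2326. Of 9 genes of CD8 T cell identity, 2 rose and 1 fell. Cd5, a brake on T cell receptor signals, rose by 0.53, and the receptor kinase gene Zap70 rose by 0.28 (limma, adjusted p = 0.0104 and 0.0227). The call of Zap70 was lost without Nae1T-KO replicate 2 or any 1 Nae1WT library (adjusted p from 0.0545 to 0.0915). Cd3g, a chain of the T cell receptor complex, had a log2 fold change of -0.51 (limma, adjusted p = 0.00365), and Cd8a had -0.09 and did not pass.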

How the data were processed

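The deposited signal is 1 table of normalized counts for 18288 gene symbols in 6 libraries. Per the submitters' processing notes, bcl2fastq, HISAT2, DESeq2 1.42.0 and the mm10 build were used. Neither the read counter nor its annotation and use of strand is given in the sources used here. Values were whole multiples of 1 step per library (100% within a tolerance of 0.001 of a read), so reads were recovered. For Nae1T-KO replicate 3 the step, 1.01, is so near 1 that recovery is less certain.

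Genes with at least 10 normalized counts in at least 3 libraries (13819) entered limma 3.58.1 (R 4.3.3, trend and robust variance, group alone) as log2(normalized count + 1). Tests were two-sided with Benjamini-Hochberg adjustment over all of them, and an adjusted p under 0.05 was called. Fold changes on this scale understate the change of low genes. Ratios of chains were compared by exact permutation over libraries. Coordinates and exon lengths came from GENCODE M21 (GRCm38).

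The members, the lists and the tests were chosen with earlier results of these data known. Named genes are the members, Nae1, measured neighbours of Il18r1, Il18rap, Il4ra and Il21r, per list the 3 or fewer called genes that changed most, given a mean normalized count of 20 or more, and the 5 genes most like the member with the largest change. Ligands, JAK and STAT genes are given by range. Il15ra, Il18, Stat4, Myd88, Cish, Ifng, Tbx21, Cd8a, Cd4, Ctla4, Tnfrsf18, Ncr1 and Serbp1 were named after their values were seen. Alternatives changed the scaling (TMM, total counts, upper quartile), the filter (none, or a minimum of 100), the pseudocount (0.5 or 5), the threshold (0.01) or the null (a 1.5-fold change), added replicate blocks or sex, left out each library, or used the recovered reads in limma-voom, DESeq2 1.42.0 or edgeR 4.0.16. The main limma fit alone was tested on simulated counts. It recovered 29.9% of 1.5-fold, 73.1% of 2-fold and 86.4% of 4-fold changes, with 12 false calls among 138. Most changes of 1.5-fold were thus missed in that simulation. It changed few genes, 67, 67 and 66 at these folds with 13609 genes tested. In the data 12.7% of tested genes were called, so these rates need not hold there. Same-numbered replicates did not vary together (r from -0.27 to -0.13), and the numbers were not taken as pairs. Each of these pairs joined a library read as female with one read as male. The check therefore cannot decide whether the numbers mark pairs.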

Additional observations from a re-analysis of the deposited data

How the results depend on the processing

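Of the 10 receptor chains, 4 were called; the number was 2 with scaling to total counts, 2 at an adjusted p under 0.01, 0 against a 1.5-fold change (limma's treat, where Il18r1 had an adjusted p of 0.0517), and 2 to 4 when 1 library was left out. Il18r1 and Il18rap were called in each fit that left out 1 library, but no such fit called all 4 chains of the main fit. Without Nae1T-KO replicate 1 the 4 called were Il18r1, Il18rap, Il2rb and, as higher, Il12rb2. Without Nae1T-KO replicate 3 they were Il18r1, Il18rap, Il21r and, as higher, Il12rb2. Of all genes 1757 were called, 903 higher and 854 lower. The number was 585 at an adjusted p under 0.01, 42 against a 1.5-fold change, and from 842 (without Nae1WT replicate 2) to 1767 when 1 library was left out, with 954 without Nae1WT replicate 3 and 1017 without Nae1T-KO replicate 2. Scaling to total counts gave 1176 higher and 621 lower. Of the listed pathway genes 19 were called, 29 by DESeq2, 9 at an adjusted p under 0.01 and 1 against a 1.5-fold change. With a replicate block by the numbers in the titles, 2 receptor chains (Il18r1 and Il18rap) and 968 genes were called. With a replicate block by the numbers in the library names, on 4 libraries, 1 chain (Il18r1), 314 genes and 5 pathway genes were called; the numbers were not taken as pairs. The sign turned in small differences when 1 library was left out: Il2ra ranged from -0.0373 to 0.243, Il2rg from -0.0443 to 0.0895, Uba3, the partner subunit of Nae1, from -0.0150 to 0.0933, Il1rl1 from -0.286 to 0.125 (0.0262 with sex as a covariate), and the log2 ratio of Il4ra to Il2rg from -0.257 to 0.000787. The cause of these moves was not tested. With 3 libraries per group the precision was limited for chains that varied between libraries: the 95% interval of Il2rb, which was not called, ran from -0.99 to 0.18.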
